A study of Mus musculus with 7 samples.

Results

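Chromatin accessibility was followed at 9 mouse genes of early development and the germline: Dppa2, Dppa3, Dppa4 and Dppa5a of the developmental pluripotency associated group, and Dazl, Ddx4, Mael, Sycp3 and Tex19.1. For each gene, every called ATAC-seq peak lying within 10 kb of the gene body was taken, in each library. The 9 genes were found by symbol among the 21951 protein-coding genes of GENCODE M21 on the mm10 build, and their windows together span 322757 bp. ATAC-seq cuts DNA with the Tn5 transposase where chromatin is accessible, and a peak marks a stretch where such cuts pile up.

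The study asked how chromatin changes when fibroblasts are reprogrammed to pluripotency. It used mouse embryonic fibroblasts (MEFs) that carry the allele Col1a1tm1(tetO-Pou5f1,-Klf4,-Sox2,-Myc)Hoch, from a B6;129S4 strain, and the allele Gt(ROSA)26Sortm1(rtTA*M2)Jae, from a B6.Cg strain, so that doxycycline, through the transactivator made from the Rosa26 locus, switches on a cassette of Oct4, Klf4, Sox2 and c-Myc (OKSM) at Col1a1. MEFs were collected untreated (day 0) and after 1, 2, 3, 6 and 9 days of doxycycline at 2 µg/mL, with ESC medium from about the emergence of the first colonies, and untreated Bruce-4 embryonic stem cells (ESCs) gave the last library, for which the labels list the genotype of the MEFs although Bruce-4 is an established ESC line. Each time-point had 1 library, so no value here has a replicate, and intervals cover counting error only.

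The Dppa genes are named for their expression in pluripotent cells. Dppa2 and Dppa4 are neighbouring genes whose SAP-domain proteins form a complex on DNA. Dppa3 (Stella) guards methylation of the maternal genome in the zygote, and Dppa5a encodes an RNA-binding protein of the KH family. Dazl, Ddx4, Mael, Sycp3 and Tex19.1 act in germ cells, and the CpG-rich promoters of such genes are typically held silent in somatic cells by DNA methylation and by a repressor complex of E2F6 and MGA, which bind E2F and E-box motifs.

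In the ESC library, 7 of the 9 genes had a peak within 10 kb and 4 had one within 1 kb of an annotated transcription start site (TSS), called a start-site peak here. Start-site peaks of Dppa2, Ddx4 and Tex19.1 were called in ESCs and in none of the 6 MEF-derived libraries, whereas Dazl had one in all 7. Dppa5a had one on days 1, 2 and 3 alone, Dppa3 on day 0 alone, and Dppa4, Mael and Sycp3 had none in any library. The grid of peak numbers gives every gene and library.

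**Figure D1:**
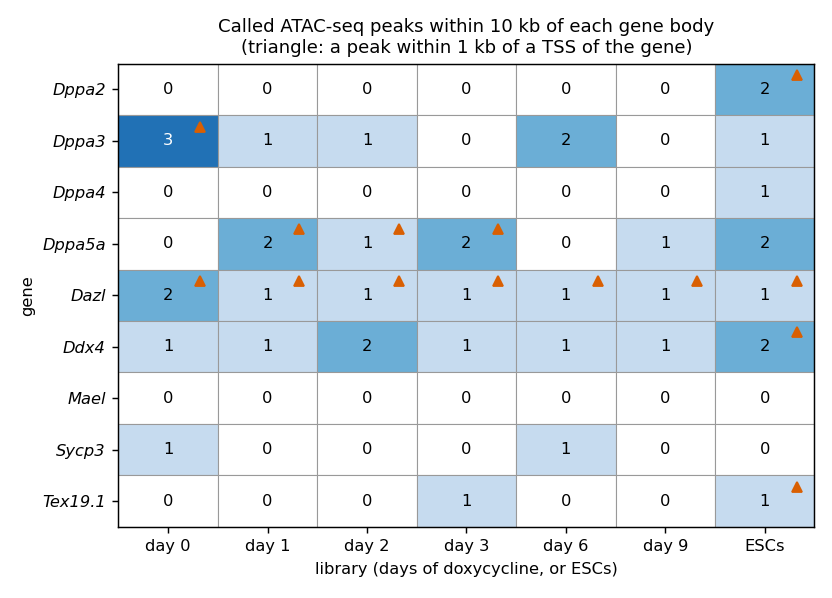
Number of called ATAC-seq peaks within 10 kb of the gene body of each of the 9 genes (rows) in each of the 7 libraries (columns, days of doxycycline or ESCs); darker cells hold more peaks and a triangle marks a peak within 1 kb of a TSS of that gene. Dazl carries a triangle in all 7 libraries, Dppa2, Ddx4 and Tex19.1 in ESCs alone, and the Mael row holds 0 throughout.

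The sequences the results turn on are the 250 bases before the RefSeq start sites of 4 of the germline genes and the intronic stretch that the Dazl peaks of all 7 libraries shared. They are read from mm10 (GRCm38) on the strand of each gene, 5′ to 3′, with E-box letters (CACGTG) and E2F letters (TCCCGC, or GCGGGA on the other strand) in capitals. The RefSeq promoter table held 5 of the 9 genes: Dazl, Ddx4, Mael, Sycp3 and Tex19.1.

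The ESC peak at Ddx4 covered 58.8% of chr13:112652311-112652560 (minus strand), including both sets of capitals.
Ddx4: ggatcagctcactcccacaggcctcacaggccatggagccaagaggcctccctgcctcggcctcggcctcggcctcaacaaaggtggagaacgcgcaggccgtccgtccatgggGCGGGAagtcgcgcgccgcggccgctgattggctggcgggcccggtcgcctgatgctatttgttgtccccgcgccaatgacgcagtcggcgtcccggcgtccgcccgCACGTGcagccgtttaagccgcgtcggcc
The ESC peak at Tex19.1 covered 100% of chr11:121145893-121146142 (plus strand).
Tex19.1: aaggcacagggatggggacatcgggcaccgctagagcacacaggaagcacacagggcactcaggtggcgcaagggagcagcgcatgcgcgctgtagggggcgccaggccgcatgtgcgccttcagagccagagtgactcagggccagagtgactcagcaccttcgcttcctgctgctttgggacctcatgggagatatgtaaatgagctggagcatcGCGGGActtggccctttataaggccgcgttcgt
No library had a peak over chr1:166238745-166238994 (minus strand).
Mael: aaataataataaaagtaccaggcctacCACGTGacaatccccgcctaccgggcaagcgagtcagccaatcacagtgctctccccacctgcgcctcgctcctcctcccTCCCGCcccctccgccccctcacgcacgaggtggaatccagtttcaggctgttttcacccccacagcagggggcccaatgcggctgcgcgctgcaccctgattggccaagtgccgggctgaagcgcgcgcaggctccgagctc
No library had a peak over chr10:88459337-88459586 (plus strand).
Sycp3: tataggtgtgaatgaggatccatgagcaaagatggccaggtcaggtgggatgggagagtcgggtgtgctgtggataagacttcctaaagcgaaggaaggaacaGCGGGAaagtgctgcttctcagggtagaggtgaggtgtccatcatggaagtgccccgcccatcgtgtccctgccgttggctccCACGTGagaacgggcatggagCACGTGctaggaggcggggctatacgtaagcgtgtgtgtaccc
The Dazl peaks of all 7 libraries covered 100% of chr17:50292606-50292820 (minus strand), which lies outside every annotated exon.
Dazl: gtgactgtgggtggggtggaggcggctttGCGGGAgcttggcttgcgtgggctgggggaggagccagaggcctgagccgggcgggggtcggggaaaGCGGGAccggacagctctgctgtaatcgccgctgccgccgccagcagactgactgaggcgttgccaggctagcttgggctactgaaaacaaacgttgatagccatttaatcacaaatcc

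Dppa2 and Dppa4 lie head to tail on chromosome 16, with 9670 bp between them. Dppa2 (ENSMUSG00000072419.5, chr16:48303908-48319723, plus strand) had 2 peaks in ESCs and 0 in each of the 6 MEF-derived libraries. The first ESC peak, 549 bp at chr16:48303472-48304020, spanned the 5′ end of the gene and part of its 5′ UTR. The second, 204 bp at chr16:48309201-48309404, lay in an intron, and 10.3% of its 50-base words recur in mm10. In ESCs 73% of all peaks were no wider than the first and 13.3% no wider than the second.

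Away from ESCs the Dppa2 locus was empty of peaks over a long distance. The peak nearest its 5′ end lay 266705 bp downstream of it on day 0. On days 1 to 9 it lay 131511 to 131584 bp downstream, at about the same place in the 5 libraries. Dppa4 (ENSMUSG00000058550.15, chr16:48283733-48294237, plus strand) had no peak nearer than the one at the Dppa2 5′ end, which falls within its 10 kb window in ESCs, 9235 bp beyond its 3′ end. That peak is 19739 bp from the 5′ end of Dppa4, so no library held a peak at the Dppa4 start or in its body.

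Dppa3 (ENSMUSG00000046323.8, chr6:122626410-122630272, plus strand) had scattered narrow peaks. On day 0 a 200 bp peak at chr6:122627724-122627923 lay in an intron, 971 bp from the second annotated TSS, and 2 more of 228 and 200 bp lay 4959 and 5267 bp past the 3′ end. On days 1, 2 and 6 peaks of 265, 200 and 322 bp overlapped one another 3100 to 3228 bp past the 3′ end, within chr6:122633372-122633737. Upstream of the gene there was a 245 bp peak on day 6, 1790 bp before the 5′ end and within 1 kb of the TSS of the small RNA gene Gm26168.

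In ESCs the only peak near Dppa3 was 227 bp wide, at chr6:122624675-122624901, 1509 bp before the 5′ end. It missed the day 6 peak by 54 bp, and the gene had no peak within 10 kb on days 3 and 9. No stretch with a peak near Dppa3 holds a 50-base word that recurs in the genome. Of the 8 peaks near this gene, none reached the median width of start-site peaks, which ranged from 488 bp in ESCs to 606 bp on day 0.

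Dppa5a (ENSMUSG00000060461.5, chr9:78367052-78368177, minus strand) had its start-site peaks on days 1, 2 and 3 only. They were 200 bp (chr9:78367125-78367324), 200 bp (chr9:78367111-78367310) and 415 bp (chr9:78367162-78367576) wide, shared 149 bp and lay over coding sequence and UTR. Their edges nearest the 5′ end lay 601 to 867 bp into the gene, which is only 1126 bp long. From there the peaks extended toward the 3′ end, and the 1 kb limit takes in most of so short a gene. They did not cover the 5′ end. Among all protein-coding genes, 8 (0.0364%) had start-site peaks in these 3 libraries and no other.

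All 417 of the 50-base words in the stretch spanned by these Dppa5a peaks recur elsewhere in mm10. Each of the 417 is found at the pseudogene Dppa5c (chr9:78272522-78272987) and 359 at the pseudogene Dppa5b (chr9:78246074-78246541), and no library had a called peak at any other copy. A single read of 50 bases from such a stretch matches more than 1 place equally well. The libraries were sequenced from both ends of each fragment, so a pair with a mate outside the copied stretch may still be placed, and the treatment of reads with several best positions is not given in the sources used here. The part of this in the Dppa5a peaks was not tested.

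Outside the gene, Dppa5a had a region downstream of its 3′ end with peaks on day 1 (429 bp), day 3 (480 bp), day 9 (240 bp) and in ESCs (200 bp), merged to chr9:78357994-78358506. This region was the only one near the 9 genes that had no peak on day 0 and peaks both during doxycycline and in ESCs. It had no peak on days 2 and 6, and 7.33% of its 50-base words recur in mm10. A 557 bp peak at chr9:78374836-78375392, between Dppa5a and Ooep, lay 6659 bp upstream and was called in ESCs alone. Dppa5a had no peak within 10 kb on days 0 and 6.

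**Figure D2:**
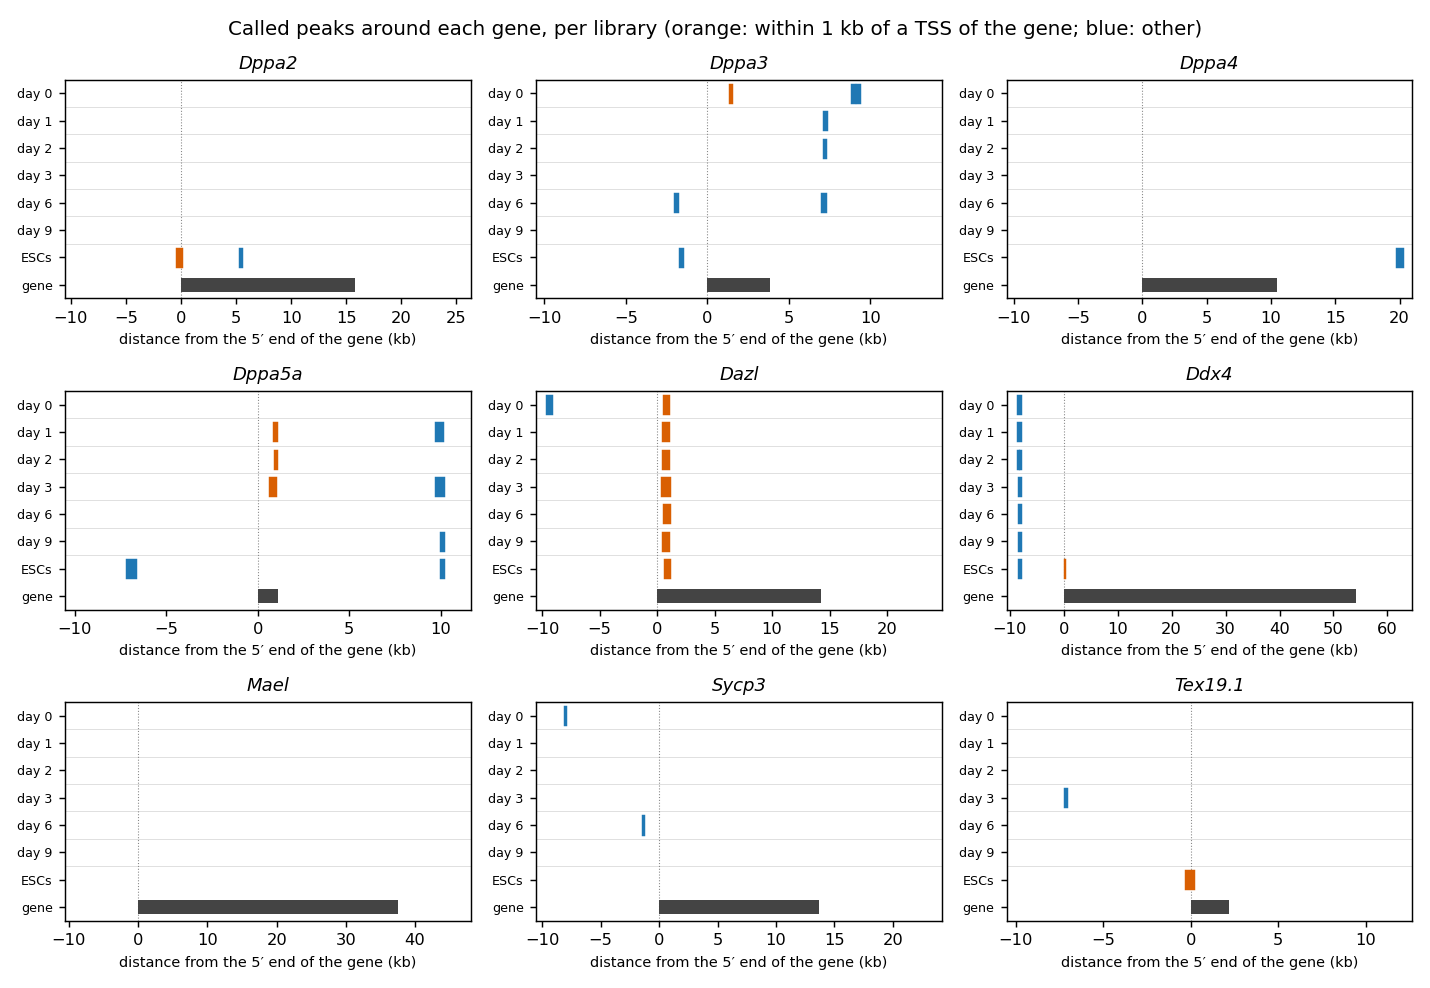
Called peaks around each gene, to scale, with distance from the 5′ end of the gene in kb along each horizontal axis (positive in the direction of transcription), 1 row per library and the gene body as a dark bar; orange peaks lie within 1 kb of a TSS of the gene and blue peaks do not. The Dazl peak stands at about the same place in 7 rows and inside the gene, the blue column 7884 to 8272 bp before Ddx4 is the Slc38a9 start, and 2 day 0 peaks downstream of Dppa3 are drawn close enough to touch.

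Dazl (ENSMUSG00000010592.9, chr17:50279395-50293636, minus strand), an RNA-binding translational regulator required for germ cell development, had a start-site peak in every library. Its width was 606 bp on day 0, then 608, 614, 727, 634 and 620 bp in the order of the doxycycline days, and 519 bp in ESCs. The 7 peaks shared 452 bp (chr17:50292606-50293057). That stretch begins 579 bp inside the 5′ end of the gene, in the first intron of the full-length transcript Dazl-201, and holds the first exon of the shorter coding transcript Dazl-204, whose TSS is at 50292892. The peak was wider than most in every library: 68.6% of ESC peaks and 78.8% to 90.6% of peaks in the MEF-derived libraries were no wider. Start-site peaks alone had larger medians: 606 bp on day 0, then 567, 527, 584, 596 and 566 bp, and 488 bp in ESCs. The Dazl peak equalled that median on day 0 and was above it in the other libraries.

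The stretch spanned by the Dazl peaks (753 bp) is CpG-rich, with 65 CpG dinucleotides, 66% GC and 0.804 of the CpGs that its base composition predicts (the observed over expected ratio). None of its 50-base words recurs. By contrast, the RefSeq promoter window of the full-length transcript, chr17:50293571-50293870, overlapped no peak in any library, and the Dazl peak in each library is thus intragenic with respect to that start. A further Dazl peak of 537 bp, 9142 bp upstream, was called on day 0 alone.

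Ddx4 (ENSMUSG00000021758.14, chr13:112598333-112652475, minus strand), the germ cell RNA helicase also called Vasa, had a start-site peak in ESCs alone. It was 303 bp wide, at chr13:112652155-112652457, and ended 18 bp short of the 5′ end of the gene, covering the second TSS of the gene. Its sequence is 75.9% GC and holds 41 CpGs (observed over expected 0.941), the highest ratio of the 19 stretches with peaks near the 9 genes. It was narrower than the ESC peaks at Dppa2, Dazl and Tex19.1, and 39.2% of ESC peaks were no wider.

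The other peaks in the Ddx4 window belonged to the start of its neighbour Slc38a9, a lysosomal amino acid transporter, which had a peak in all 7 libraries. These peaks were 828, 718, 591, 630, 654 and 532 bp wide on days 0, 1, 3, 6, 9 and in ESCs, and on day 2 the place was split into peaks of 287 and 322 bp. They lay 7884 to 8272 bp upstream of Ddx4. Thus Ddx4 counts as a gene with a peak within 10 kb in every library, while its own start had one in ESCs alone.

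Tex19.1 (ENSMUSG00000039329.8, chr11:121146143-121148319, plus strand), which restrains retrotransposons in germ cells and placenta, had a 518 bp ESC peak at chr11:121145788-121146305 across its 5′ end. Of the 50-base words of this peak, 10.2% recur, all of them in the paralogue Tex19.2, where no library had a peak. The only other peak near Tex19.1 was 200 bp wide and 7067 bp upstream, on day 3. Days 0, 1, 2, 6 and 9 had none within 10 kb.

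Sycp3 (ENSMUSG00000020059.9, chr10:88459569-88473236, plus strand), a component of the synaptonemal complex that holds meiotic chromosomes, had a 200 bp peak 7940 bp upstream on day 0 and another 1292 bp upstream on day 6, each called in that library alone. In ESCs the nearest peak was 44039 bp downstream of its 5′ end. Mael (ENSMUSG00000040629.8, chr1:166201201-166238747, minus strand), which acts in transposon silencing by piRNAs, had no peak within 10 kb in any library. The nearest peak to its 5′ end was 15319 bp away on day 0, then 28664, 121366, 15216, 77977 and 44033 bp in the order of the doxycycline days, and 43807 bp in ESCs. Mael was the only one of the 9 genes with no peak within 10 kb in any of the 7 libraries.

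One peak lay just past the 10 kb limit, and it decides whether Dppa5a counts on day 6. The farthest peaks inside it lay 9142 bp (Dazl, day 0) and 9235 bp (Dppa4, ESCs) from the gene body. The nearest outside it lay 10071 bp (Dppa5a, day 6) and 14097 bp (Ddx4, day 0) away.

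Counted over libraries, 4, 4, 4, 4, 4, 3 and 7 of the 9 genes had a peak within 10 kb on days 0, 1, 2, 3, 6, 9 and in ESCs. The shares were 44.4% (exact 95% interval 13.7% to 78.8%) for each of days 0 to 6, 33.3% (7.49% to 70.1%) for day 9 and 77.8% (40% to 97.2%) for ESCs. Among all 21951 protein-coding genes the shares were 76.5%, 72.8%, 68.5%, 74%, 73.6%, 69.2% and 66.6% in the same order. The 9 genes were thus below the share of all genes at the 6 MEF-derived time-points and above it in ESCs. The intervals of the 9 genes contain the share of all genes in each of the 7 libraries.

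Start-site peaks were called at 2, 2, 2, 2, 1, 1 and 4 of the 9 genes, or 22.2% (2.81% to 60%) on days 0 to 3, 11.1% (0.281% to 48.2%) on days 6 and 9, and 44.4% (13.7% to 78.8%) in ESCs. The shares of all protein-coding genes were 59.6%, 55.7%, 51.6%, 56.4%, 57.3%, 53.4% and 50.3%. On days 6 and 9 the interval of the 9 genes lay below the share of all genes. The 9 genes were chosen with earlier results of these data known and were not drawn at random. Their comparison with all genes is therefore a description and not a test. In ESCs the share of the 9 genes was near that of all genes, although ESCs had the fewest genes with a start-site peak among the 7 libraries.

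**Figure D3:**
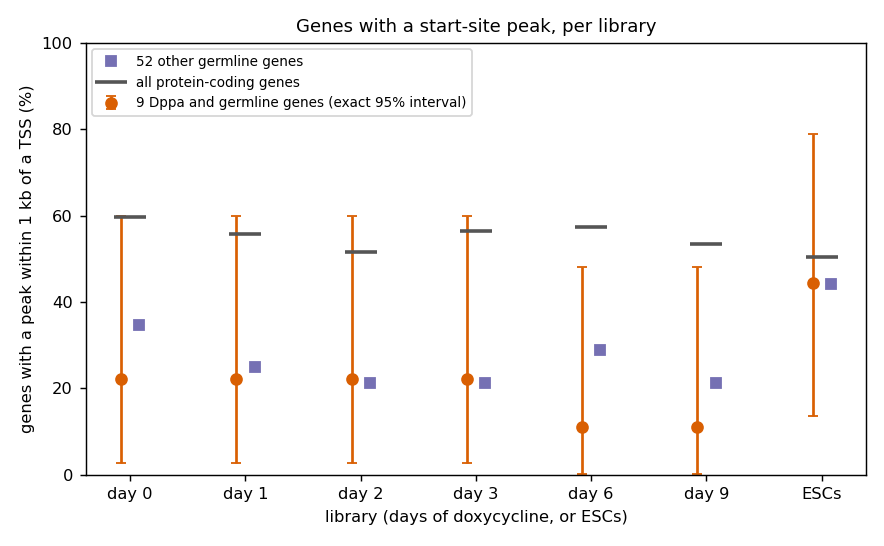
Percentage of genes with a called peak within 1 kb of a TSS in each of the 7 libraries, for the 9 genes (orange circles, bars are exact 95% binomial intervals for counting error), for 52 other germline genes (squares) and for all 21951 protein-coding genes (dark lines). The 9 genes stand at 11.1% to 22.2% in the MEF-derived libraries and at 44.4% in ESCs, where all protein-coding genes stand at 50.3%.

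By pattern over the 7 libraries, 3 of the 9 genes had a start-site peak in ESCs and in no other library, a pattern shared by 292 protein-coding genes (1.33%). Dazl shared its presence in every library with 42.6% of protein-coding genes, and Dppa4, Mael and Sycp3 their absence from every library with 34.8%. None of Dppa2, Ddx4 and Tex19.1 had a start-site peak on day 9, the last day of doxycycline. In bulk libraries, fewer cells with an open site and less opening per cell cannot be told apart, and a site without a called peak may still be open in some cells.

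The windows held 7, 5, 5, 5, 5, 3 and 9 peaks on days 0, 1, 2, 3, 6, 9 and in ESCs, 39 in all, of which 9 had the smallest width found in any library, 200 bp. ESCs gave 9 of 27074 peaks, the shortest list (0.0332%, 0.0152% to 0.0631%), against 7 of 61241 on day 0 (0.0114%, 0.0046% to 0.0235%) and 3 of 33007 on day 9 (0.00909%, 0.00187% to 0.0266%). Per Mb of window this was 27.9 (12.8 to 52.9) in ESCs and 21.7 (8.72 to 44.7) on day 0, while the windows of all protein-coding genes held 15.8 and 33.5 per Mb. The intervals for ESCs and day 0 overlap, and with windows of 20 kb day 0 held 11 peaks and ESCs 10.

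Merged over libraries, the peaks formed 19 regions, and 14 of these had a peak in 1 library only. ESCs alone accounted for 6 regions (exact Poisson 95% interval 2.2 to 13.1), at Dppa2 (2), Dppa3, Dppa5a, Ddx4 and Tex19.1. Of all 70343 regions within 10 kb of protein-coding genes, 8.12% were of this kind. Day 0 alone accounted for 5 (1.62 to 11.7; 21.8% of all regions) and transient regions, with peaks under doxycycline but neither on day 0 nor in ESCs, for another 5 (30%). Day 0 with a later library accounted for 2 (36.9% of all regions), the Dazl and Slc38a9 starts, both with peaks in every library. The last region, downstream of Dppa5a, was of the class called opened before ESCs: it had peaks under doxycycline and in ESCs and none on day 0 (3.15%). That name gives no course in time, since the ESCs are a separate line. No peak of 300 bp or more was found in 4 of the 5 regions of day 0 alone, 3 of the 5 transient regions and 2 of the 6 regions of ESCs alone.

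A list of 52 other germline genes gave the context. Start-site peaks were called at 18 of them on day 0 (34.6%), 13 on day 1 (25%), 11 on days 2, 3 and 9 (21.2%), 15 on day 6 (28.8%) and 23 in ESCs (44.2%). In ESCs alone there were 9 (17.3%), against 1.33% of all protein-coding genes, and 22 had none in any library. The list was chosen with earlier results of these data known, so the contrast with all genes is a description only. The shares of the list were below those of all genes in each library.

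The meiosis genes held most of the ESC-only starts, with 6 of 15: Sycp2, Syce1 and Tex12 of the synaptonemal complex, the meiotic cohesin subunit Rec8, the recombinase Dmc1 and the meiotic RNA regulator Meioc. Their start-site peaks numbered 10 of 15 in ESCs (66.7%) and 2 to 5 in the MEF-derived libraries (13.3% to 33.3%). Of all protein-coding genes, 50.3% had one in ESCs and 51.6% to 59.6% in the MEF-derived libraries. The peaks of Rec8 (615 bp), Dmc1 (481 bp), Syce1 (334 bp), Tex12 (242 bp) and Sycp2 (220 bp) spanned the 5′ ends of these genes, and the Meioc peak (373 bp) lay 1481 bp inside its 5′ end. The piRNA and germ granule genes had 1 ESC-only start of 15, Piwil2 (288 and 213 bp), the primordial germ cell genes 0 of 10, and the other methylation-controlled germline genes 2 of 12, Taf7l and Dpep3, each with a peak of 200 bp. Of the 9 genes of the lists with the ESC-only pattern, 4 had a peak of at least 300 bp and 5 had narrower ones only. None of these peaks lay within 1 kb of the TSS of another protein-coding gene. The only gene of the lists with the Dppa3 pattern, day 0 alone, was Tdrd6, and none had the Dppa5a pattern.

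The 5 RefSeq promoter windows (250 bases before to 50 after the start) differed in CpG content. Ddx4 held 38 CpGs, more than or as many as 94.2% of the 21263 promoters of protein-coding genes, Dazl 28 (82.8%), Mael 24 (75.2%), Tex19.1 16 (57.3%) and Sycp3 15 (55.2%), against a median of 13. Of the 2 windows under an ESC peak, one was the richest and the other among the poorer of the 5. CpG content thus did not order these promoters by whether they had a peak.

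**Figure D4:**
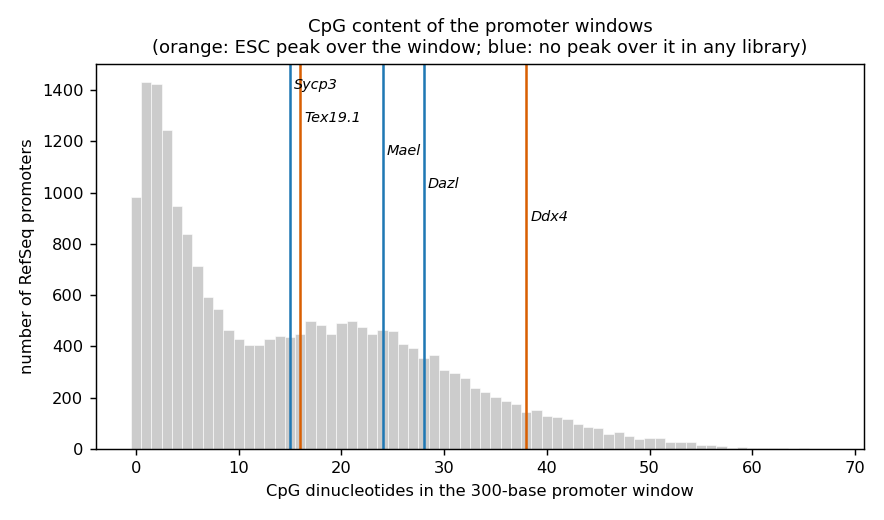
Histogram of the number of CpG dinucleotides in 300-base RefSeq promoter windows (horizontal axis) over 21263 promoters of protein-coding genes (vertical axis, number of promoters), with a line for each of 5 germline genes, orange where an ESC peak overlaps the window and blue where no library has one. Ddx4 (38 CpGs) and Tex19.1 (16) have the ESC peak, and Dazl (28), Mael (24) and Sycp3 (15) lie between or beside them.

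In the same windows, on both strands, CACGTG began at -29 from the start site of Ddx4, at -223 from that of Mael and at -64 and -43 from that of Sycp3, while 7.84% of all promoters held it. TCCCGC or its complement began at -136 at Ddx4, at -143 and 11 at Mael, at -147 at Sycp3 and at -33 at Tex19.1, and 25.8% of all promoters held it. Dazl had neither in its promoter window, but its shared intronic stretch of 215 bases holds GCGGGA at 2 places, the GC box GGGCGGGG at 1 and no CACGTG. The Ddx4 and Tex19.1 matches lay inside the ESC peaks, and those at Mael and Sycp3 under no peak.

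The octamer ATGCAAAT (1.66% of all promoters), the SOX letters AACAATG (3.25%) and the KLF letters GGGTGTGG (3.63%) occurred in none of the 5 windows, and the GC box GGGCGGGG (23.6%) in the Sycp3 window alone among the 5, at -95, with no overlap with the other matches. A match of letters is a description and not a site of binding.

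The library labels were compared with marker genes. Of 8 fibroblast markers, 7, 6, 6, 7, 6, 5 and 2 had a start-site peak on days 0, 1, 2, 3, 6, 9 and in ESCs, and Twist1 and Fn1 had one in all 7 libraries. Of 8 ESC markers, 4, 3, 1, 3, 2, 2 and 3 did, with Pou5f1, Esrrb and Zfp42 in ESCs and Nanog and Sall4 in no library. Zfp42 had its peak in ESCs alone, Pou5f1 and Esrrb also had one on day 0, and Sox2, Tdgf1 and Tfcp2l1 had theirs in MEF-derived libraries and none in ESCs. The start-site peaks of the ESC markers thus did not follow the labels. Within 10 kb of the gene body, 6, 7, 6, 6, 7, 4 and 7 of the 8 ESC markers had a peak, in the same order of libraries. For the 8 fibroblast markers these counts were 8, 8, 7, 8, 7, 7 and 5. Among all protein-coding genes, 50.3% to 59.6% had a start-site peak over the 7 libraries, and 66.6% to 76.5% a peak within 10 kb. The shares of the ESC markers within 10 kb, 50% to 87.5%, lay on both sides of that range and did not follow the labels either.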

How the data were processed

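Peak lists of 7 mouse ATAC-seq libraries were used, 1 per time-point. The deposited files give only chromosome and positions of peaks, without a score. The authors trimmed reads to 50 bases (Trimmomatic), aligned to mm10 (Bowtie2), ran Samtools fixmate, removed duplicates and downsampled to one depth (Picard), and called peaks per library (MACS2). That depth is not given in the sources used here, so the reads behind a peak are unknown.

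Peaks sharing at least 1 bp with a gene body extended by 10 kb (GENCODE M21), or with 1000 bp either side of a TSS, were counted with Python 3.11.15, numpy 2.4.6 and scipy 1.17.1. Touching or overlapping peaks were merged into regions. The code was tested on simulated data and gave the counts of BEDTools 2.31.1. Intervals are exact 95% binomial or Poisson intervals. No test between libraries was possible. Recurring words were counted in GRCm38, and promoters came from RefSeq (GRCm38.p6). The genes and lists were chosen with earlier results of these data known. All 9 genes are named, neighbours with a TSS within 1 kb of a peak, and, of the lists, genes sharing a member's pattern, at first up to 3 alphabetically, Dmc1, Dpep3 and Meioc; the other 6 with the ESC-only pattern were added after their values were seen. Alternatives changed the window, peak width, overlap, TSS definition, merging distance and libraries.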

Additional observations from a re-analysis of the deposited data

How the results depend on the processing

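Under the alternatives, 108 of 180 counts stayed within 1.5 times the value reported and 72 moved. In ESCs the number of genes with a start-site peak stayed at 4 in each alternative but a 2 kb TSS window, where it was 5 with Dppa3 added. The alternative of the 27074 widest peaks kept the whole ESC list, so the per-library ESC counts could not change there. Those unchanged ESC counts are among the 108. For genes with a peak within 10 kb, day 0 fell from 4 to 2 with a 5 kb window, the gene body alone, peaks of at least 300 bp or the 27074 widest peaks of each library, day 1 to 2 with the gene body alone, day 2 to 2 with the gene body alone, at least 300 bp or the widest peaks, day 3 to 2 with 5 kb or the gene body alone, and day 6 to 1 and ESCs to 4 with the gene body alone. Day 9 gave 1 with 5 kb or the gene body alone and 5 with 20 kb.

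For start-site peaks, day 0 gave 1 with at least 300 bp, the widest peaks, 50% of the peak inside the window, a 500 bp window or the 5′ end alone, days 1 and 2 gave 1 with at least 300 bp, the widest peaks or 500 bp, day 3 gave 1 with 500 bp, and day 6 gave 3 with 2 kb, with Dppa3 and Sycp3 added. The Dppa5a peaks of days 1 and 2 are among those that a minimum of 300 bp removes.

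For the number of peaks, 5 kb gave 3, 3, 3, 2 and 1 on days 0, 1, 2, 3 and 9, and 20 kb gave 11, 9, 8, 9, 8 and 6 on days 0, 1, 2, 3, 6 and 9 and 10 in ESCs, so that day 0 and not ESCs then held the most. The gene body alone gave 2 on days 0, 1, 2 and 3, 1 on days 6 and 9, and 5 in ESCs. At least 300 bp gave 3, 3, 2 and 3 on days 0, 1, 2 and 6, the widest peaks gave 3 on each of these days, and leaving out peaks near a TSS of another gene gave 3 on days 2 and 6.

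For regions, those of day 0 alone numbered 2 with 5 kb, 8 with 20 kb and 1 with the gene body alone, at least 300 bp or the widest peaks, and those of day 0 with a later library 1 with 5 kb or the gene body alone. Transient regions numbered 10 with 20 kb, 1 with the gene body alone, 3 with at least 300 bp and 2 with the widest peaks. The region opened before ESCs numbered 0 with 5 kb, the gene body alone or at least 300 bp, 2 with 20 kb and 2 when peaks within 300 bp were merged, which joins the day 6 and ESC peaks upstream of Dppa3. Narrower windows and fewer peaks lower counts by construction, and the cause of each other change was not tested.

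No paired analysis was possible because no group has more than 1 library. Peak lists give no signal, so a change in height at a site open in several libraries, such as Dazl, cannot be read, and a peak just under the calling threshold is listed like closed chromatin. At an unknown depth, absence of a peak was only not detectable accessibility.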
